A study of Homo sapiens with 6 samples.

Results

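The 9 genes described here encode enzymes of the methionine cycle and of transsulfuration and sulfur oxidation, and were taken by symbol from a table of 21619 entries. They are MAT2A, MAT2B, AHCY, MTR, MTRR, CBS, CTH, MPST and SUOX, each on 1 entry, and 9 of 9 passed the filter on low counts. PolyA RNA of HT1080, a human fibrosarcoma cell line, was sequenced in 3 libraries labelled PGK1_WT (wild-type cells) and 3 labelled PGK1_OE (cells with stable overexpression of PGK1, the glycolytic enzyme phosphoglycerate kinase 1). The sample descriptions name the control libraries v511, which the sources do not explain. The sources do not say whether the control cells carry an empty vector, whether the overexpressing cells are 1 clone or a pool, or whether replicates were separate cultures. The p-values therefore reflect how far these libraries vary among themselves, which may be technical variation only.

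The methionine cycle turns methionine into S-adenosylmethionine (SAM), the methyl donor of most cellular methylation, then into S-adenosylhomocysteine and homocysteine. Homocysteine is either methylated back to methionine, a step that uses folate and cobalamin, or passed into transsulfuration, where CBS and CTH convert it through cystathionine to cysteine. Cysteine feeds glutathione, the thiol that the ferroptosis-limiting peroxidase GPX4 uses, so transsulfuration is an alternative source of cysteine beside cystine import. MPST and SUOX act downstream, in sulfur transfer from mercaptopyruvate and in the oxidation of sulfite to sulfate.

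Libraries held between 34425162 and 40538274 counts. The overexpressed gene checks the labels: its level in CPM, the read count scaled to library size, was 523 ± 4.03 (SD, n = 3) in WT and 12660 ± 597 in PGK1_OE. Of the 6 mesenchymal markers 5 rose and CDH2 fell, from 153 ± 2.05 to 105 ± 4.57 CPM. VIM, the most abundant of them, measured 1890 ± 227 CPM in WT, against 3569 ± 24.3 CPM in PGK1_OE, and the 6 genes, mostly through VIM, summed to 2890 to 3330 CPM in WT and 5430 to 5510 CPM in PGK1_OE. EPCAM, KRT5, PTPRC, TYROBP and ALB had 0 counts in all 6 libraries. The 4 epithelial genes summed to 2.46 to 3.43 CPM in WT and 0.975 to 3.35 CPM in PGK1_OE, the 4 leukocyte genes to 0.109 to 0.211 and 0.101 to 0.426 CPM, and the 3 hepatocyte genes to 0.475 to 1.15 and 0.255 to 0.725 CPM. Of the epithelial genes, CDH1 fell from 17, 28 and 16 counts in WT to 0, 0 and 0 in PGK1_OE (edgeR adjusted p = 1.82e-04). CLDN4 measured 2.40 ± 0.510 CPM in WT against 1.84 ± 1.31 CPM in PGK1_OE (edgeR adjusted p = 0.465). The 3 endothelial genes summed to 4.05 to 5.28 CPM in WT and 10.1 to 13.3 CPM in PGK1_OE. PECAM1 alone was higher there (3.15 ± 0.727 against 10.4 ± 1.58 CPM), while VWF was at 1.40 ± 0.399 CPM in WT against 0.853 ± 0.286 CPM in PGK1_OE, and CDH5 had 0, 17 and 13 counts in WT and 0, 6 and 0 in PGK1_OE. The part of these markers in the results was not tested.

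CBS and CTH, the enzymes that carry homocysteine to cysteine, fell in PGK1_OE, with log2 fold changes of -3.36 and -2.38, and SUOX showed the largest rise of the 9 genes (log2 change 1.15). The 250 bases before a RefSeq start site (GRCh38.p14) are shown for these 3 genes, 5′ to 3′ on the gene's own strand. Capitals mark CCAAT or its reverse complement ATTGG, and TGACGT, which is part of the cAMP response element. CBS has 3 such windows; the one shown was chosen because it holds capitals on both strands, and which start site these cells use was not measured.
CBS, chr21:43075836-43076085, minus strand: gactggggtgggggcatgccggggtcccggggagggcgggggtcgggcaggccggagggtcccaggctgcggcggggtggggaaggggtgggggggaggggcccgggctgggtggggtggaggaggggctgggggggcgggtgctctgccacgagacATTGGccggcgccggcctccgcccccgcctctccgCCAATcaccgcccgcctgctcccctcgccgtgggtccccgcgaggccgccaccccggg
CTH, chr1:70411018-70411267, plus strand: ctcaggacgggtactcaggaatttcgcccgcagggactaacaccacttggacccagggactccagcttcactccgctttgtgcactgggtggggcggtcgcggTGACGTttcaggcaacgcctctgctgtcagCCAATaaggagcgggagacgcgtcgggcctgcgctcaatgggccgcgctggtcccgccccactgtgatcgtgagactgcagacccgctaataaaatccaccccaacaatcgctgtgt
SUOX, chr12:55997026-55997275, plus strand: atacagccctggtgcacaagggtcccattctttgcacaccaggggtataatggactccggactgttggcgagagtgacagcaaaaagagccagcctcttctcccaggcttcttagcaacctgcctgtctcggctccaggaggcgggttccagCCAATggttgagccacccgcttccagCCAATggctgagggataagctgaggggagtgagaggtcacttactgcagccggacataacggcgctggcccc
The CTH window held 1 TGACGT, starting 147 bases before the start site, and 1 CCAAT, starting 117 bases before it. The CBS window shown had 24 CpG dinucleotides and a GC content of 81.2%. The other CBS windows had 3 and 52.0%, and 41 and 80.8%. The CTH window had 20 and 61.6%, and the SUOX window 8 and 58.8%. Medians over 35116 RefSeq windows of this length were 11 and 58.0%.

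RefSeq gave 13 windows for 7 of the 9 genes, all but MTRR and MPST. TGATGNAA, the core letters of the element that C/EBP-ATF dimers such as those of ATF4 bind, was searched on both strands and was in 0 of the 13 windows and in 3.14% of all windows. TGACGT was in 1 of the 13 and in 7.1% of all. CCAAT was in 8 of the 13, from CBS, CTH, MAT2A, MAT2B, MTR and SUOX, and in 32.01% of all. The 2 MTR windows overlap and hold the same 3 sites, so that stretch is counted in both. CCAAT was in windows of genes that rose (MAT2A, MAT2B, SUOX), genes that fell (CBS, CTH) and MTR, which did not pass the test. These windows lie before RefSeq start sites, which is not always before the annotated gene. The CBS and MAT2B windows with CCAAT lay inside the annotated span of their gene. Those of CTH, MAT2A and SUOX crossed the start of that span, and the SUOX CCAAT nearer the start site lay inside it. The MTR window from 236795031 ended just before the MTR span, and the MTR window from 236795042 crossed its start. None of the 3 motifs overlapped another in the windows shown, and a match is a description of the letters only.

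The comparison asked how these 9 mRNAs differed between PGK1-overexpressing and wild-type cells. MAT2A, MAT2B, MPST and SUOX rose, MTRR, CBS and CTH fell, and AHCY and MTR did not pass the test (edgeR quasi-likelihood, p adjusted over all 14322 entries tested, threshold 0.05). The 7 genes called of 9 stand beside 71.2% of all entries called, 35.4% higher and 35.8% lower, so the count is close to the background. The 3 PGK1_OE libraries did not overlap the 3 WT libraries for 7 of the 9 genes, beside 76.4% of all entries. The median log2 fold change was 0.065 over the 9 genes and -0.018 over all entries, and the median size of a change without its sign was 0.55 and 0.56. A change of at least 2-fold was called for CBS, CTH and SUOX, 3 of 9, beside 24.1% of all entries. The falls of CBS and CTH were past 4-fold, as were those of 3.44% of all entries.

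**Figure D1:**
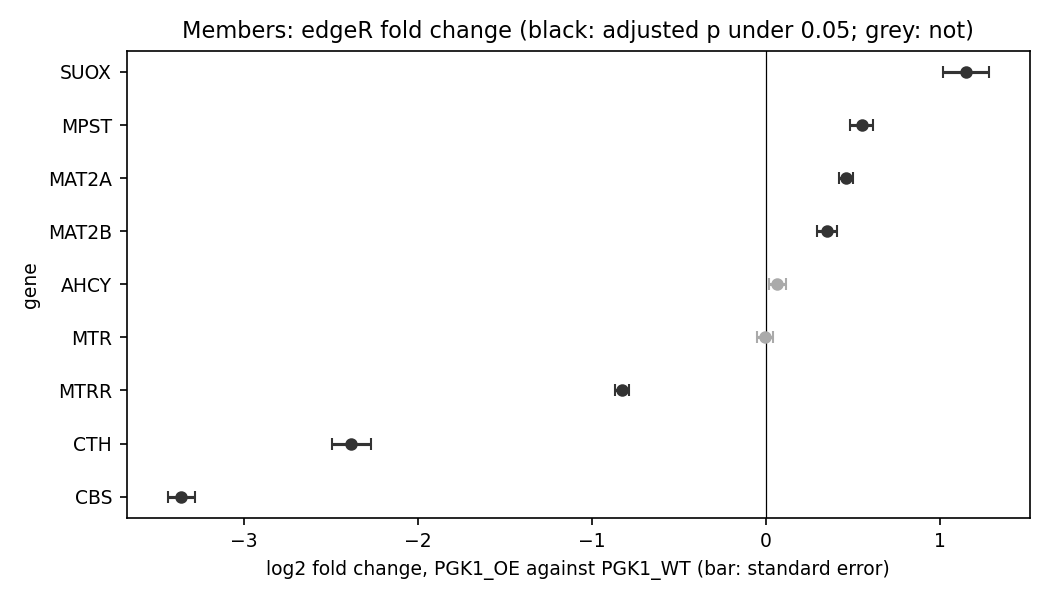
Log2 fold change of the 9 genes, PGK1_OE against PGK1_WT, on the horizontal axis, with 1 gene per row; bars are standard errors from edgeR, black points passed an adjusted p of 0.05 and grey points did not. CBS (-3.36) and CTH (-2.38) lie far left, SUOX (1.15) lies farthest right, and AHCY and MTR lie near 0.

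CBS, cystathionine beta-synthase, joins homocysteine to serine as the first step of transsulfuration. It stood at 92.8, 84.8 and 93.3 CPM in WT replicates 1, 2 and 3, and at 8.95, 9.58 and 7.83 CPM in PGK1_OE replicates 1, 2 and 3. Every PGK1_OE library lay far below every WT library, and the spread within each group was small beside the gap. The fall was 10.3-fold (log2 change -3.36, SE 0.08, edgeR adjusted p = 2.85e-11), from raw counts of 3517, 2998 and 3414 to 358, 380 and 276. CBS (ENSG00000160200, chromosome 21, 43053191 to 43076943, minus strand, GRCh38 in GENCODE 29) has a near-identical annotated copy, CBSL, on the same chromosome at 6444869 to 6468040. The longest CBSL transcript, of 2563 bases, was aligned over its whole length to the closest CBS transcript, of 2583 bases. They differed by 21 edits (99.19% identical). Most of these edits come from the unequal lengths, so the shared bases are more alike than that. No entry used here carries the symbol CBSL. How the authors treated reads that fit both copies is not given, so the level of CBS is uncertain.

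CTH, cystathionine gamma-lyase, splits cystathionine to give cysteine. Its levels were 23.5, 21.0 and 23.0 CPM in WT and 4.20, 3.96 and 4.80 CPM in PGK1_OE. The groups did not overlap, and the lowest WT library was over 4 times the highest PGK1_OE library. The fall was 5.21-fold (log2 change -2.38, SE 0.11, edgeR adjusted p = 4.40e-09), from raw counts of 890, 741 and 843 to 168, 157 and 169. CTH (ENSG00000116761) spans chromosome 1, 70411218 to 70439851, on the plus strand, and holds a small annotated noncoding RNA of 283 bases on the same strand.

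SUOX and MPST rose. SUOX, the mitochondrial sulfite oxidase, stood at 5.46, 6.62 and 7.62 CPM in WT and at 14.3, 15.1 and 14.3 CPM in PGK1_OE. It was the least abundant of the 9 genes in WT, and all PGK1_OE libraries lay above all WT libraries. The rise was 2.21-fold (log2 change 1.15, SE 0.13, edgeR adjusted p = 9.49e-06), and SUOX (ENSG00000139531, chromosome 12, 55997180 to 56006641, plus strand) overlaps no other annotated gene.

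MPST, mercaptopyruvate sulfurtransferase, makes persulfide and hydrogen sulfide from a product of cysteine transamination. It stood at 22.0, 23.8 and 25.2 CPM in WT and at 35.2, 34.4 and 34.1 CPM in PGK1_OE, with no overlap. The rise was 1.46-fold (log2 change 0.55, SE 0.07, edgeR adjusted p = 1.79e-05). MPST (ENSG00000128309, chromosome 22, 37019635 to 37029822, plus strand) overlaps TST, a related sulfurtransferase gene on the opposite strand, over 549 bases. TST rose too, with 3.57 ± 0.574 CPM in WT against 7.21 ± 0.610 CPM in PGK1_OE (log2 change 1.01, edgeR adjusted p = 2.00e-04). Strand use in counting is not given, so reads of either gene may be in the other's count and both values are uncertain.

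Both subunits of the methionine adenosyltransferase of non-hepatic cells rose modestly. MAT2A, the catalytic subunit that makes SAM, stood at 328, 309 and 332 CPM in WT and at 434, 462 and 436 CPM in PGK1_OE. The PGK1_OE libraries were all higher, by 1.38-fold in the means (log2 change 0.46, SE 0.04, edgeR adjusted p = 1.10e-06). MAT2B, the regulatory subunit, stood at 69.3, 74.7 and 77.5 CPM in WT and at 93.7, 87.9 and 100.6 CPM in PGK1_OE. Its groups did not overlap either, and the rise was 1.27-fold (log2 change 0.35, SE 0.06, edgeR adjusted p = 2.40e-04). MAT2A (ENSG00000168906, chromosome 2, 85539165 to 85545280, plus strand) overlaps the 3' end of GGCX on the opposite strand over 558 bases. GGCX measured 59.1 ± 1.70 CPM in WT, against 55.8 ± 3.15 CPM in PGK1_OE, so its level was below that of MAT2A in both groups, and the MAT2A value is uncertain to that extent. MAT2B (ENSG00000038274) spans chromosome 5, 163503114 to 163519336, on the plus strand, and overlaps no annotated gene.

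AHCY hydrolyses S-adenosylhomocysteine, the product inhibitor of methyltransferases, to homocysteine. It stood at 247, 225 and 251 CPM in WT and at 243, 260 and 254 CPM in PGK1_OE, and the groups overlapped. The log2 fold change was 0.065 (edgeR adjusted p = 0.241), with a 95% interval of -0.039 to 0.17. AHCY (ENSG00000101444, chromosome 20, 34280268 to 34311802, minus strand) overlaps a pair of noncoding genes on its own strand, and GENCODE 29 holds 6 pseudogenes named after it that may share its reads.

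MTR and MTRR work together in remethylation. MTR, the cobalamin-dependent methionine synthase, stood at 70.2, 67.4 and 70.9 CPM in WT and at 68.3, 67.7 and 71.8 CPM in PGK1_OE. The groups overlapped throughout, and the log2 fold change was -0.0050 (edgeR adjusted p = 0.932) with a 95% interval of -0.11 to 0.099. MTRR, the reductase that restores oxidised cobalamin on MTR, stood at 154.3, 154.5 and 150.7 CPM in WT and at 84.2, 87.6 and 87.1 CPM in PGK1_OE. This 1.78-fold fall separated the groups with little spread in either (log2 change -0.83, SE 0.04, edgeR adjusted p = 4.66e-09). MTRR (ENSG00000124275, chromosome 5, 7851186 to 7906025, plus strand) overlaps FASTKD3 on the opposite strand over 9879 bases and C5orf49 over 305. FASTKD3 measured 26.6 ± 2.36 CPM in WT, against 25.4 ± 1.96 CPM in PGK1_OE (log2 change -0.068, edgeR adjusted p = 0.491), so the MTRR value is uncertain although its neighbour did not pass the test. MTR (ENSG00000116984, chromosome 1, 236795281 to 236903981, plus strand) contains the pseudogene RPSAP21 on the same strand.

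Levels of different genes were compared in the deposited FPKM values, which are scaled to gene length. In WT the order of mean FPKM ran from MAT2A (116) and AHCY (106) through MTRR (46.6), CBS (35.9), MAT2B (28.7), MPST (16.0), CTH (10.2) and MTR (6.40) to SUOX (2.65), and no neighbours in that order overlapped between libraries. In PGK1_OE the order was MAT2A (156), AHCY (107), MAT2B (37.7), MTRR (25.0), MPST (22.3), MTR (6.19), SUOX (6.05), CBS (3.32) and CTH (1.89). MTR and SUOX were the only neighbours whose libraries overlapped there. CBS went from rank 4 in WT to rank 8 in PGK1_OE, where the transsulfuration pair took the last places. The hydrolase and the catalytic SAM-forming subunit stayed at the top in both groups.

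**Figure D2:**
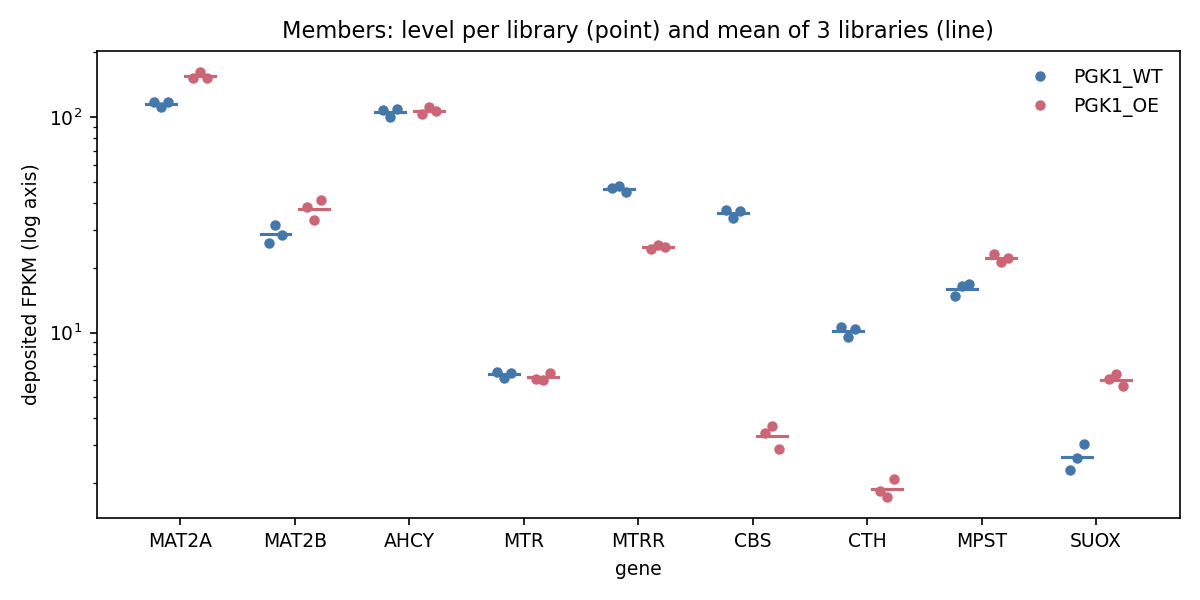
Deposited FPKM of each of the 9 genes on a log axis, with points for the 3 libraries of each group (blue PGK1_WT, red PGK1_OE) and a line at their mean. The red points of CBS and CTH lie far below the blue ones, those of MTRR lie below, those of SUOX, MPST, MAT2A and MAT2B lie above, and those of AHCY and MTR overlap.

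Partner enzymes were also set against each other as FPKM ratios within a library. The CBS to CTH ratio was 3.50, 3.54 and 3.54 in WT and 1.86, 2.13 and 1.37 in PGK1_OE, so CBS stood above CTH in every library and by less in each PGK1_OE library. The mean log2 difference of this ratio was -1.01 (SE 0.19, exact two-sided permutation test p = 0.1, n = 3 libraries per group), and 0.1 is the smallest p that 3 against 3 allows. The MTR to MTRR ratio was 0.140, 0.128 and 0.145 in WT and 0.249, 0.236 and 0.258 in PGK1_OE, without overlap (log2 difference 0.85, SE 0.06, exact permutation p = 0.1). The MAT2A to MAT2B ratio was 4.52, 3.54 and 4.16 in WT and 4.0, 4.86 and 3.68 in PGK1_OE, and these ranges overlapped (log2 difference 0.035, SE 0.16, exact permutation p = 0.9). No p in this family of 3 ratios could pass 0.05.

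**Figure D3:**
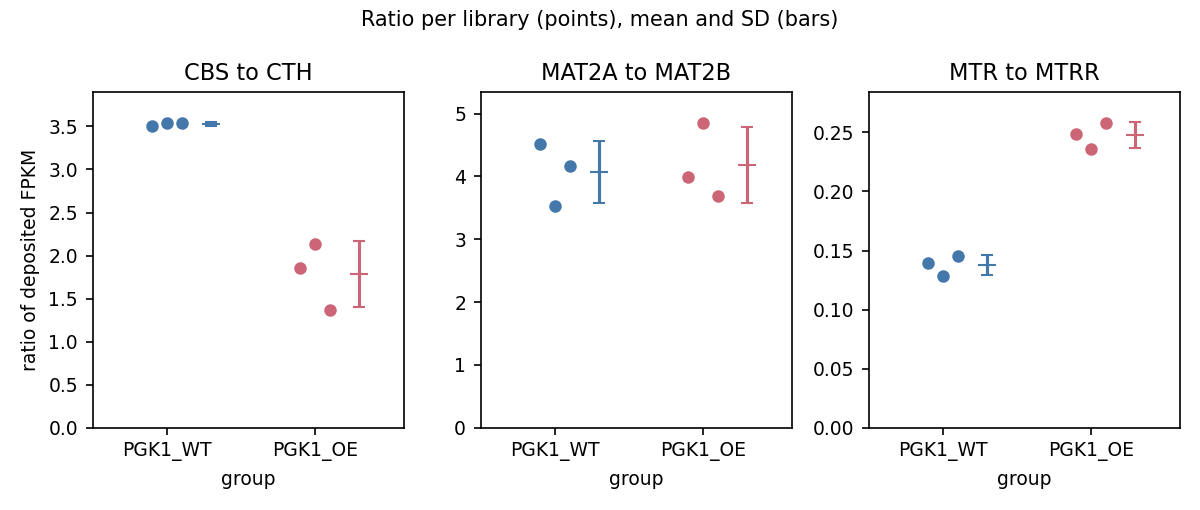
FPKM ratios of CBS to CTH, MAT2A to MAT2B and MTR to MTRR, with 1 point per library and the mean with its SD beside the points; every vertical axis starts at 0. The CBS to CTH ratio is lower and the MTR to MTRR ratio higher in all 3 PGK1_OE libraries, while the MAT2A to MAT2B ratios overlap.

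The entries whose profile over the 6 libraries was most like that of CBS were TRIB3, IL24 and DDIT3, and those most like CTH were TUFT1, MAFF and STC2. Likeness was the distance between log2 CPM profiles centred on the WT mean, among 10809 entries with a symbol and an average log2 CPM of at least 2. The distances from CBS were 0.26, 0.30 and 0.30 log2 units, and those from CTH were 0.24, 0.27 and 0.28. The log2 fold changes were -3.29, -3.37 and -3.29 for TRIB3, IL24 and DDIT3, and -2.36, -2.44 and -2.27 for TUFT1, MAFF and STC2. With only 2 groups the likeness mostly reflects the size of the group difference. DDIT3 and MAFF overlap protein-coding genes on the opposite strand. DDIT3 also overlaps a protein-coding gene on its own strand, AC022506.1, so these values are uncertain.

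Other genes of the pathway were described from 6 lists, beside the background of 35.4% higher and 35.8% lower. Among paralogs and side routes of the methionine cycle, 4 of 6 were tested, of which 1 rose and 2 fell (median log2 fold change -0.19). MAT1A, the liver form of the SAM-forming enzyme, had 442, 401 and 474 counts in WT and 171, 216 and 148 in PGK1_OE. It fell from 12.0 ± 0.849 to 4.64 ± 0.699 CPM (log2 change -1.37, SE 0.14, edgeR adjusted p = 3.63e-06), the opposite direction to MAT2A. Per length it was far below MAT2A in WT, at an FPKM of 3.35 ± 0.218 against 116 ± 3.70. ADK, which clears the adenosine that AHCY releases, fell from 128.6 ± 3.51 to 93.7 ± 1.88 CPM (-0.46). AHCYL2 rose slightly (0.24), and BHMT and BHMT2, which remethylate homocysteine with betaine or S-methylmethionine, had 0 counts in all 6 libraries.

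The methionine salvage route returns the methylthioadenosine of polyamine synthesis to methionine, and 2 of its 5 genes rose and 1 fell (median 0.17). ADI1, its dioxygenase, rose from 61.2 ± 9.32 to 167 ± 5.51 CPM (log2 change 1.45, SE 0.11, edgeR adjusted p = 4.01e-05), and the isomerase MRI1 from 22.4 ± 1.13 to 50.0 ± 1.55 CPM (1.16, SE 0.06). ENOPH1 fell from 95.4 ± 4.83 to 69.4 ± 5.85 CPM (-0.46). APIP was -0.026 (edgeR adjusted p = 0.791). MTAP, the first enzyme of the route, had only 57, 63 and 88 counts in WT and 97, 84 and 65 in PGK1_OE, the fewest of the 5 genes (log2 change 0.17, edgeR adjusted p = 0.589).

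Of 8 tested genes of SAM use and sensing, 2 rose and 5 fell (median -0.24). SLC25A26, the carrier that brings SAM into mitochondria, fell from 52.2 ± 0.589 to 27.1 ± 0.708 CPM (-0.95, SE 0.05). GAMT, a methyltransferase of creatine synthesis, rose from 9.23 ± 1.31 to 18.8 ± 0.992 CPM (1.03, SE 0.12). METTL16, the RNA methyltransferase that controls splicing of MAT2A mRNA, fell from 44.7 ± 3.42 to 32.1 ± 1.36 CPM (-0.48, SE 0.07), and PEMT, which methylates phosphatidylethanolamine, fell by 0.61. Of 9 cobalamin-handling genes, 2 rose and 3 fell (median -0.093). LMBRD1, the lysosomal cobalamin exporter, fell by 0.49 and MMADHC, which directs cobalamin to its enzymes, by 0.24 on the log2 scale. MMAA, of the mitochondrial branch, fell by 1.06 (SE 0.26), and MMACHC, the processing enzyme, rose by 0.32.

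Of 7 tested genes of cysteine breakdown and sulfide oxidation, 2 rose and 2 fell (median -0.31). GOT1, the cytosolic aspartate aminotransferase, which also converts cysteine to the mercaptopyruvate that MPST uses, fell from 276 ± 21.8 to 66.7 ± 2.13 CPM (log2 change -2.05, SE 0.06, edgeR adjusted p = 1.29e-10). Its mitochondrial counterpart GOT2 rose from 127 ± 3.27 to 199 ± 4.67 CPM (0.64, SE 0.04). ADO, a thiol dioxygenase, fell by 0.68 on the log2 scale, and TST rose as given with MPST. CDO1, the cysteine dioxygenase, had 0 counts in all 6 libraries. SQOR (-0.34, edgeR adjusted p = 0.0977) and ETHE1 (0.097, edgeR adjusted p = 0.329), which oxidise sulfide, did not pass.

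SUOX needs the molybdenum cofactor, and of the 4 genes of its synthesis 2 rose and 1 fell (median 0.091). GPHN rose by 0.25 and MOCS2 by 0.13, MOCS3 fell by 0.33, and MOCS1 was 0.054 (edgeR adjusted p = 0.561), all smaller in size than the rise of SUOX. Of the genes named from these lists, APIP, MRI1, MTAP, SLC25A26, LMBRD1, MMACHC, SQOR, ETHE1, TST and MOCS1 overlap a protein-coding gene in GENCODE 29, and most others overlap a noncoding one, so their values are uncertain.

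**Figure D4:**
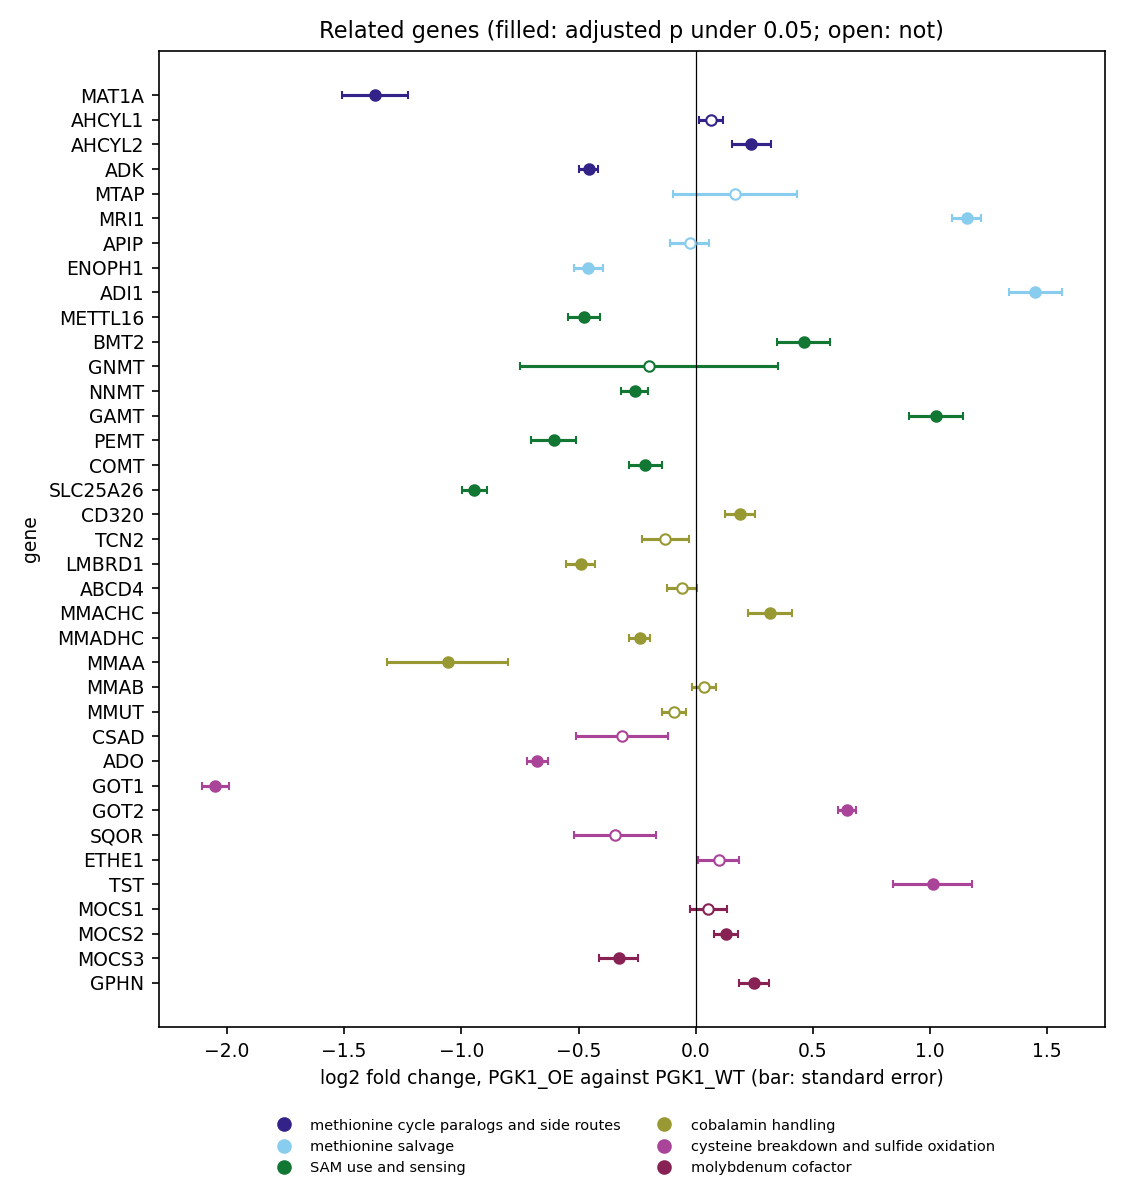
Log2 fold change, PGK1_OE against PGK1_WT, of the tested genes of 6 related lists, with 1 gene per row, colour for the list and standard errors as bars; filled points passed an adjusted p of 0.05. Every list holds points on both sides of 0, with GOT1 (-2.05) and MAT1A (-1.37) farthest left and ADI1 (1.45) farthest right.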

How the data were processed

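The submitters' processing notes name fastp, HISAT and hg38. Tool versions, read counter, strand setting, annotation and the source of FPKM were not given in the sources used here. Raw read counts per gene and FPKM values, which the authors scaled for length and library size, are both as deposited. Columns were matched to libraries through the sample descriptions.

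Counts were filtered with filterByExpr, scaled by TMM and tested two-sided with edgeR 4.0.16 (R 4.3.3; quasi-likelihood, robust, group only), with Benjamini-Hochberg adjustment over 14322 entries. The SE of a log2 fold change is its size over the square root of F. No library repeated another of its group (chi-square per degree of freedom between pairs, 7.41 to 14.0). The fit was also run on simulated counts in which few genes changed, unlike these data, so that run is a check of the code only. Alternatives used limma 3.58.1, DESeq2 1.42.0, other scalings and filters, pseudocounts of 1 and 0.1 on FPKM, a replicate block and leaving out each library. Same-numbered libraries had deviations correlated at -0.013, -0.013 and 0.095, so the numbers were not taken as pairs.

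The members and lists were chosen with earlier results of these data known. Named genes are the 9 members, PGK1, up to 4 called genes per list with the smallest adjusted p (all genes of lists of up to 5), MAT1A, CBSL and MTAP in any case, and the 3 nearest profiles of CBS and of CTH. BHMT, BHMT2, CDO1, SQOR and ETHE1 were named after their values were seen, and genes that overlap a member were added. One gene of the side-route list is not reported here. Gene positions are from GENCODE 29 on GRCh38, the build of hg38, matched by Ensembl identifier, and promoter windows are from RefSeq.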

Additional observations from a re-analysis of the deposited data

How the results depend on the processing

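The 7 called members kept their direction and their side of the threshold under all 16 alternatives run, with log2 fold changes between -3.42 and -3.10 for CBS, -2.46 and -1.95 for CTH, -0.89 and -0.80 for MTRR, and 0.95 and 1.27 for SUOX. AHCY passed in none of the 16 (adjusted p 0.0892 to 0.735). MTR changed sign to 0.0083 without PGK1_WT replicate 1, 0.016 without PGK1_WT replicate 3, 0.013 without PGK1_OE replicate 1 and 0.014 without PGK1_OE replicate 2, ranged from -0.031 to 0.016 when libraries were left out, and passed in none of the 16 (adjusted p 0.343 to 0.987). The MAT2A to MAT2B ratio ranged from -0.079 to 0.12 when libraries were left out, the CBS to CTH ratio from -1.15 to -0.83 and the MTR to MTRR ratio from 0.80 to 0.89. With the replicate number as a block 9943 entries were called against 10195, 7 members were called, and no member's call changed. CBS summed with CBSL could not be run, since no entry used here carries the symbol CBSL. The lowest count of a member in any library was 157, for CTH in PGK1_OE replicate 2.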

Other observations

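The deposited counts and FPKM values together give an implied length for each gene, as counts per FPKM and per library total. The source of FPKM was not given, so this need not be the length used in scaling. This length was nearly constant over libraries for CTH, at 2240 to 2254 bases, and for AHCY, at 2299 to 2320 bases. It varied for MAT2B, from 2397 to 2759 bases, and for SUOX, from 2307 to 2588 bases. The MAT2B values were 2681, 2430 and 2759 in WT and 2415, 2584 and 2397 in PGK1_OE, so the ranges overlapped. The log2 difference of the MAT2A to MAT2B ratio was 0.035 in FPKM and 0.11 in normalised CPM.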
